A study of Mus musculus with 6 samples.

Results

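Lymphocytes enter lymph nodes from the blood, move through them and leave by the lymph, and 4 genes of this traffic are described here: Ccr7, S1pr1, Klf2 and Cxcr4. They were listed by name, with no threshold on a measured value, and are 4 of the 14125 genes in the deposited single-cell counts. The cells came from the nodes that drain the uterus (udLN) and the brachial nodes (brLN) of 7 pregnant mice, 4 Aire-DTR and 3 WT. In Aire-DTR mice, cells that express Aire carry a receptor for diphtheria toxin and can be removed by it. WT dams received the same toxin, so the genotype comparison is one between toxin-treated mice. All dams were mated to BALB/c males, toxin was given over the first 9 days of pregnancy, and nodes were taken at embryonic day 9.5. No source used here gives the dams' age or strain or how the transgene was built. Among Aire-DTR dams, mouse 4 is listed as resorbed and mice 7, 8 and 36 as IUGR, and the WT dams were mice 1, 6 and 97. Cells were sorted as CD45+ CD3+ by one label and as CD45+ by another, and B cells are present. Mice 6 and 8 were loaded together in pool 1, mice 36 and 97 in pool 2, and mice 1, 4 and 7 in pool LN. Aire itself had 8 unique molecular identifiers (UMIs, each standing for 1 captured RNA molecule) in all cells, 5 in Aire-DTR and 3 in WT mice, so these data give no check of the depletion.

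CCR7 is the receptor for the chemokines CCL19 and CCL21, which bring naive lymphocytes out of the blood into the node and hold them in its T cell zone. S1PR1 senses sphingosine 1-phosphate, a lipid abundant in blood and lymph, and draws lymphocytes out of the node; the activation antigen CD69 binds S1PR1 and removes it from the cell surface. KLF2 is a transcription factor of resting lymphocytes that drives transcription of S1pr1. CXCR4 is the receptor for CXCL12, which stromal cells of bone marrow and lymph node make.

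In the annotation of build GRCm38 (GENCODE vM21), Ccr7 lies on the minus strand at chr11:99144196-99155077 and S1pr1 on the minus strand at chr3:115710433-115715072. Klf2 lies on the plus strand at chr8:72319033-72321656 and Cxcr4 on the minus strand at chr1:128588199-128592293. Over all cells Klf2 stood at 858, Ccr7 at 392, S1pr1 at 199 and Cxcr4 at 9.68 CPM (CPM is the UMIs of a gene over all UMIs, scaled as usual). Promoter sequences matched for 2 of the 4 genes, Klf2, on which the node comparison turns, and Cxcr4, the least abundant. They are RefSeq sequences of build GRCm38.p6, 5′ to 3′ on each gene's own strand, at chr8:72318812-72319032 for Klf2 and chr1:128592300-128592549 for Cxcr4, and they end before the annotated start. Capitals mark matches, on either strand, to the motifs searched.
Klf2 promoter: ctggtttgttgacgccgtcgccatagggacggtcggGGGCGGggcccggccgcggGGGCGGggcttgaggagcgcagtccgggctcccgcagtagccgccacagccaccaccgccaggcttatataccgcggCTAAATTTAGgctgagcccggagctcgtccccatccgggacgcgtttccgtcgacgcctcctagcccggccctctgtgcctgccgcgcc
Cxcr4 promoter: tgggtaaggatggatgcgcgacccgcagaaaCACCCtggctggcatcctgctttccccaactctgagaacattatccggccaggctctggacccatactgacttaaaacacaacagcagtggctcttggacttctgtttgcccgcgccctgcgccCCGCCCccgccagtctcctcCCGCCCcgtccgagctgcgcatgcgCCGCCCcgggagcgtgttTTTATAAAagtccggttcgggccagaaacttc
The motifs were GGGCGG (the GC box), CACCC (the core bound by Krüppel-like factors), GTAAACA (a forkhead site), TATAAA and the MEF2 site. The 221 bases of Klf2, of which 71.5% were G or C, held 2 matches to GGGCGG and 1 MEF2 match, and none to the other 3. Over 32851 mouse promoters, 28.7% of windows of this length held GGGCGG and 2.61% held a MEF2 match. The 250 bases of Cxcr4, 61.2% G or C, held 3 matches to GGGCGG, 1 to CACCC and 2 overlapping matches to TATAAA. At this length 32.7%, 52% and 12.4% of windows held these motifs. A match is a description of the letters and not evidence of binding.

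Before any result, the table was checked for repeated cells. Of the 9427 cells listed, 2127 were second copies of a cell with the same barcode letters, counts and labels, all from mice 1, 4 and 7 of pool LN. Each cell was used 1 time, which left 7300 distinct cells with 22833288 UMIs and a median of 2910 UMIs. A further 208 barcodes occurred in more than 1 well, and those were kept as different cells. Counts were not compared across wells. The 14 combinations of mouse and node held 48 (udLN of WT mouse 97) to 1060 cells. Cell classes were those of the deposited tables: naive and memory (Mem) classes of CD4+ and of CD8+ T cells, CD4+ Treg, gdT, B, NK and Myeloid, and, for 850 distinct CD4 cells, the subsets Resting Treg, Act. Treg, Early Act. CD4, Tfh and Th17. Most classes carried their defining markers, such as Cd79a at 4711 CPM in B cells against at most 14.1 CPM in the CD4+ and CD8+ T cell classes. The CD4+ Mem T class also held Cd8b1 at 242 CPM, Early Act. CD4 held it at 425 CPM, and Th17 held the gamma delta T cell genes Trdv4 at 98.4 and Cd163l1 at 78.2 CPM. The Myeloid class held the red cell transcript Hbb-bs at 55164 CPM. Of cells in T cell classes, 10.2% had a UMI of Cd79a, Cd79b or Ms4a1, and 9.22% of B cells had one of Cd3d, Cd3e or Cd3g.

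Ccr7 was highest in naive T cells. Levels are given as CPM of the summed UMIs of a class in 1 mouse, with both nodes joined and at least 20 cells, and since the classes may have been drawn from the expression of these same cells, differences between classes are described and not tested. In CD4+ Naive T cells Ccr7 ran from 563 through a median of 623 to 714 CPM, a mean of 632 ± 52.3 (SD, n = 7 mice). CD8+ Naive T cells followed at 504 ± 31.4 CPM (n = 7), and no mouse's value reached the lowest CD4+ Naive T value. CD4+ Treg cells stood at 379 ± 65.6 (n = 6), CD8+ Mem T at 266 ± 30.8 (n = 6), CD4+ Mem T at 252 ± 58.8 (n = 7) and B cells at 197 ± 22.4 CPM (n = 7). CD8+ Naive T and CD4+ Treg values overlapped, CD4+ Treg values lay above all CD8+ Mem T values, and the 3 lowest classes overlapped. Memory-class cells had less Ccr7 than naive cells of the same lineage within every mouse, with a median ratio of 0.386 for CD4 (7 of 7 mice lower) and 0.536 for CD8 cells (6 of 6 lower). The 54 NK cells, too few for a value per mouse, had 15 Ccr7 UMIs, or 69.9 CPM with an exact Poisson 95% interval of 39.1 to 115, which covers counting error only.

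S1pr1 followed a similar order at lower values. CD4+ Naive T cells ran from 235 through 275 to 327 CPM, a mean of 276 ± 27.4 (SD, n = 7). CD4+ Treg cells (235 ± 35.3, n = 6) and CD8+ Naive T cells (235 ± 16.9, n = 7) overlapped them and each other. CD8+ Mem T (165 ± 16.2, n = 6), B (135 ± 13.2, n = 7) and CD4+ Mem T cells (130 ± 19.4 CPM, n = 7) lay below all CD8+ Naive T values and overlapped each other. Within mice the ratio of memory to naive class had a median of 0.490 in CD4 (7 of 7 lower) and 0.730 in CD8 cells (6 of 6 lower).

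Klf2 had a different order, with 5 of 6 replicated classes close together and CD4+ Mem T cells low. B cells ran from 813 through 966 to 1105 CPM (963 ± 97.7, SD, n = 7), CD4+ Treg cells had 916 ± 77.0 (n = 6), CD8+ Naive T 911 ± 64.8 (n = 7), CD4+ Naive T 842 ± 74.5 (n = 7) and CD8+ Mem T 783 ± 45.1 CPM (n = 6), each overlapping its neighbour. CD4+ Mem T cells ran from 405 through 494 to 613 CPM (498 ± 69.2, n = 7), below every value of the other 5 classes. The ratio of memory to naive class was 0.574 (median) in CD4 cells and 0.860 in CD8 cells, lower in 7 of 7 and 6 of 6 mice. NK cells, low in Ccr7, had Klf2 at 970 CPM (842 to 1111).

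**Figure D1:**
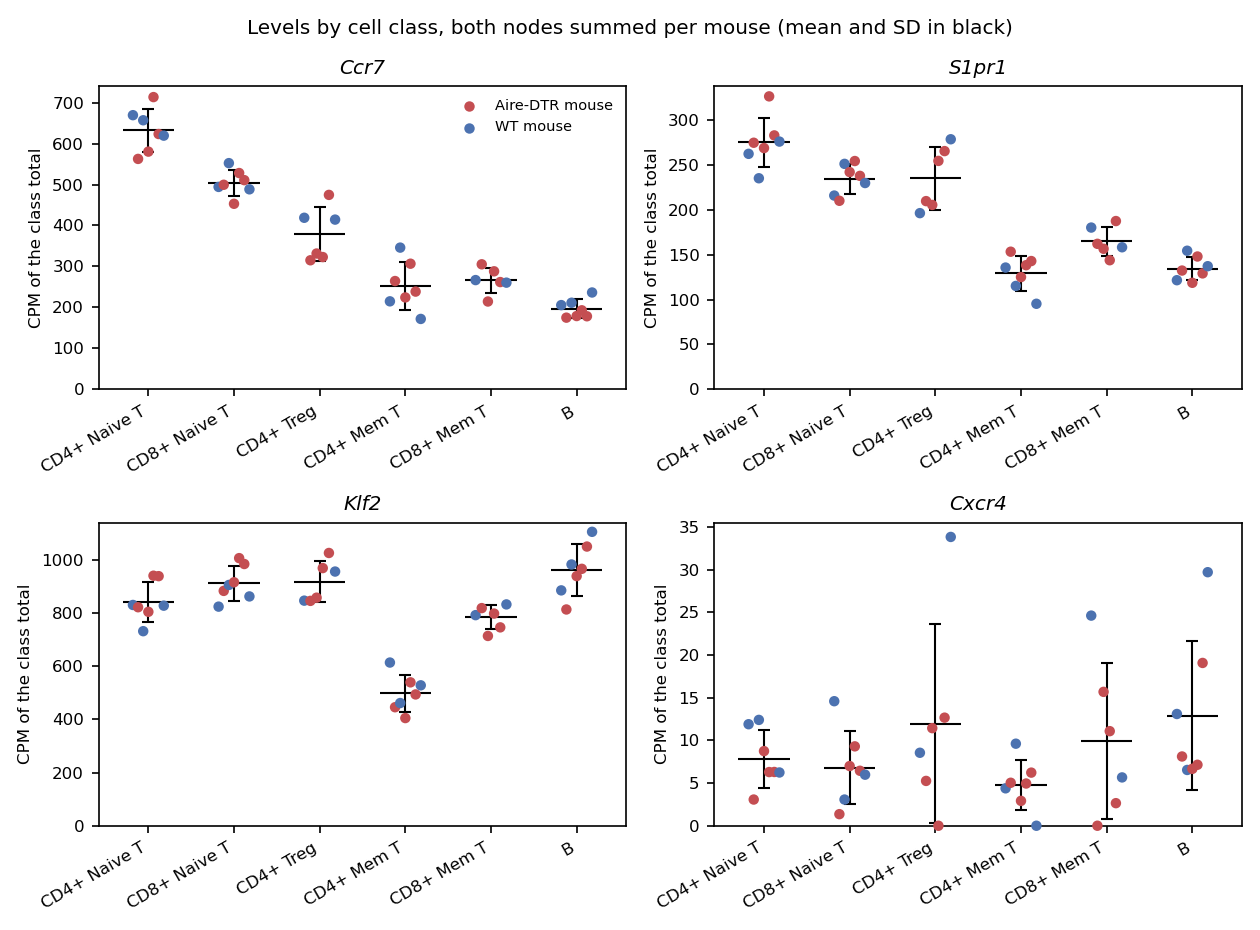
Levels of the 4 genes (y axis, CPM of the class total, linear) in 6 deposited cell classes (x axis), a point per mouse, with the mean and SD in black. Ccr7 and S1pr1 are highest in CD4+ Naive T cells (means of 632 and 276 CPM), Klf2 is low in CD4+ Mem T cells (498 CPM), and Cxcr4 is near its floor throughout.

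Cxcr4 was close to the limit of detection in every class. All 7300 cells held 221 Cxcr4 UMIs. Class means ran from 4.73 ± 2.94 CPM in CD4+ Mem T (SD, n = 7) to 12.9 ± 8.71 CPM in B cells (n = 7), and all neighbouring classes overlapped. Over all cells of a class, the Myeloid class had 42.5 CPM from 12 UMIs (21.95 to 74.2, exact Poisson) and gdT 28.1 CPM from 6 UMIs (10.3 to 61.2). No Cxcr4 UMI was found in the 188 Early Act. CD4 cells, which allows a share of up to 1.60% of cells with a UMI and a level of up to 4.32 CPM at 3 counts. Its order over classes is not read further.

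Shares of cells with a UMI were compared after each cell was thinned to 1500 UMIs, which left out 411 shallower cells. Klf2 was found in 65.4% of 1623 CD4+ Naive T, 68.8% of 1878 CD8+ Naive T and 68.3% of 2070 B cells, but in 39.5% of 509 CD4+ Mem T cells. Ccr7 was found in 56.5%, 50.2%, 23.5% and 24.4% of these classes in the same order, and in 7.55% of 53 NK cells. S1pr1 was found in 31.2%, 29.2%, 17.5% and 17.3%, and Cxcr4 in 1.23%, 1.17%, 2.32% and 0.786%. As a measure of background, Cd79a, a B cell gene, was found in 1.79%, 1.17% and 1.18% of the CD4+ Naive T, CD8+ Naive T and CD4+ Mem T cells and in 5.66% of NK cells, and Cd3e, a T cell gene, in 4.01% of B cells. The Cxcr4 shares were at or below these, and the Ccr7 share of NK cells was close to them. Median depths before thinning were 2903, 3446.5, 2261 and 3268 UMIs in the CD4+ Naive T, CD8+ Naive T, B and CD4+ Mem T classes. Before thinning the Klf2 shares were 80.6%, 88.6%, 78.7% and 52.5%, the Ccr7 shares 76.7%, 76.9%, 31.8% and 40.2%, and the S1pr1 shares 51.8%, 52.1%, 26.2% and 31.7%. None of the 4 genes had a UMI in 43.6% of thinned CD4+ Mem T cells, against 11.8% of CD4+ Naive T and 12.1% of CD8+ Naive T cells.

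Among CD4 subsets, regulatory cells split by state. By class, 117 of the 155 Act. Treg cells were CD4+ Mem T and 38 were CD4+ Treg. Of the 266 Resting Treg cells, 257 were CD4+ Treg. Resting Treg cells had Klf2 at 889, 932, 933, 1060 and 1102 CPM in 5 mice, and Act. Treg cells at 188, 317, 323, 346 and 362 CPM, with no overlap. In the 4 mice with both, the ratio of Act. Treg to Resting Treg had a median of 0.325 for Klf2, 0.378 for S1pr1 and 0.528 for Ccr7, below 1 in 4 of 4 mice for each. Early Act. CD4 cells had means between these, with Klf2 at 463 ± 77.9 and S1pr1 at 113 ± 40.3 CPM (SD, n = 5). Tfh cells, which in their mature state stay in B cell follicles, had Klf2 at 240 and 286 CPM in the 2 mice with at least 20 cells, and at 339 CPM over all 136 cells. Th17 cells had Klf2 at 898 and 952 and S1pr1 at 233 and 248 CPM in 2 mice, near Resting Treg cells (S1pr1 244 ± 32.9, n = 5) and above all other subsets. Ccr7 in Th17 cells, at 186 and 242 CPM, was below that of Resting Treg cells (408 ± 77.6, n = 5). It was near that of Tfh (188 and 240 CPM in 2 mice) and Act. Treg cells (193 ± 87.2 CPM, n = 5). Markers of gamma delta T cells were found in the Th17 subset (above), and their part in these values was not tested. Early Act. CD4 cells had the highest share of cells with a UMI of Cd69, at 45.6% after thinning, with 6.86% in Th17 and 15.4% to 20% in the other subsets, and they also held the most of the early response genes Egr1 (424 CPM) and Nr4a1 (321 CPM) of these subsets.

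**Figure D2:**
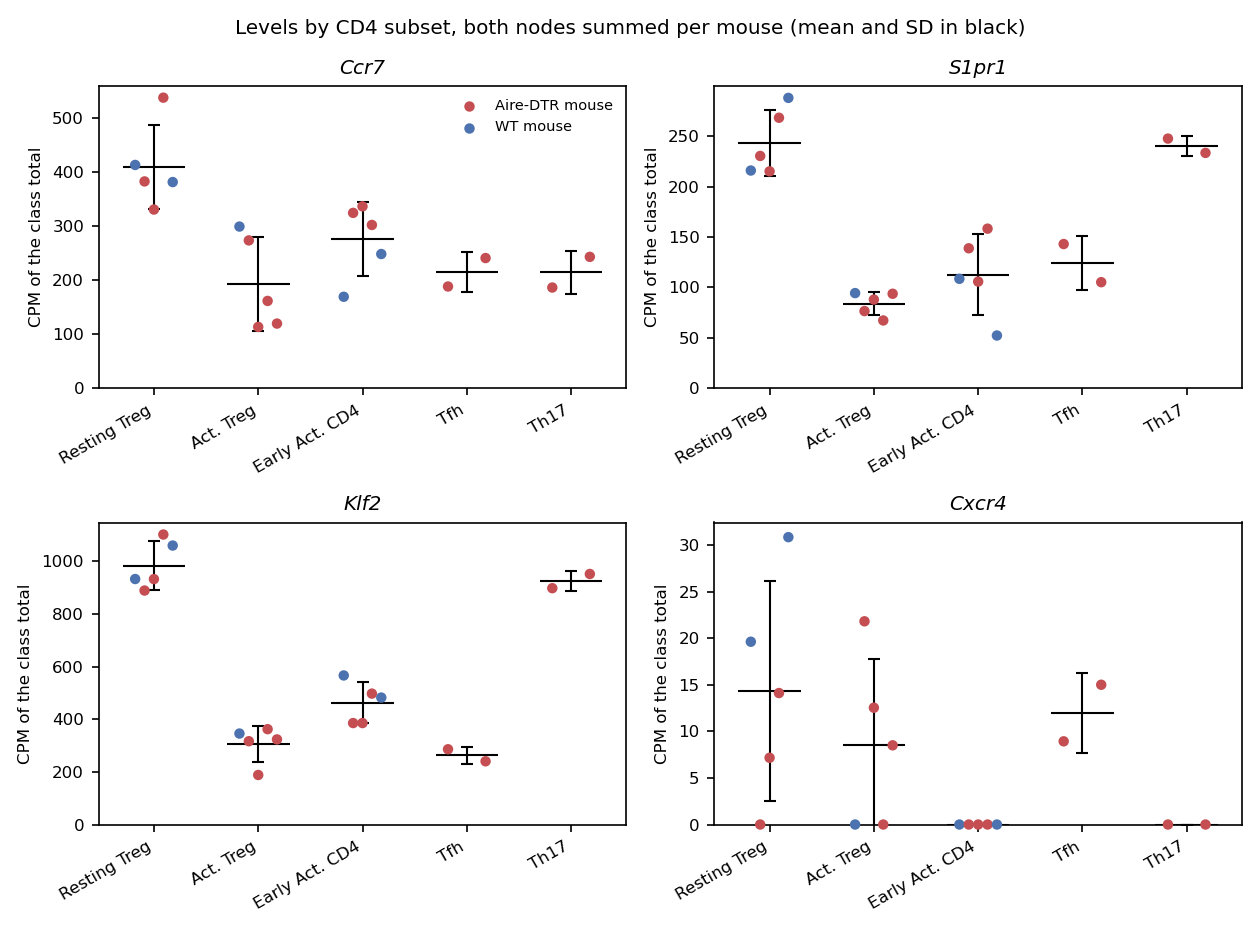
Levels of the 4 genes (y axis, CPM of the subset total, linear) in 5 CD4 subsets (x axis), a point per mouse with at least 20 cells, with the mean and SD in black. Klf2 and S1pr1 are high in Resting Treg and Th17 cells and low in Act. Treg cells (Klf2 307 CPM). Ccr7 in Th17 cells is below that of Resting Treg cells and near that of Tfh and Act. Treg cells.

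Across 65 sums of a mouse, node and class, and among 2714 genes with a mean of at least 50 CPM, levels of Ccr7 and S1pr1 went together (Pearson r = 0.79 of log2 CPM). S1pr1 was the third most alike gene to Ccr7, and Ccr7 the most alike to S1pr1. Ccr7 was otherwise nearest to Grap2 (r = 0.80), an adaptor of T cell receptor signalling, Gm10275 (0.80), Rpl19 (0.78) and Eef2 (0.78), the last of these a translation factor and Rpl19 a ribosomal protein gene. S1pr1 was nearest, after Ccr7, to Rpl19 (0.75), Smad7 (0.73), an inhibitor of TGF-beta signalling, Klf13 (0.72) and Rps14 (0.71). Genes alike to Klf2 included Fau (0.75), Treml2 (0.66), Acp5 (0.60) and Cmah (0.60), with r = 0.38 to S1pr1 and 0.31 to Ccr7. For Cxcr4, with sparse counts, the nearest gene was Smchd1 at r = 0.48, and no likeness is read from it. With the 37 brLN sums only, 3 of the 5 nearest genes were shared for Ccr7, S1pr1 and Klf2 and 2 of 5 for Cxcr4, whose nearest gene was then Mrps18a at 0.59, and Ccr7 and S1pr1 were then each other's nearest gene (0.81). These are descriptions over sums that share mice, libraries and depth, so they carry no p.

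Klf2 was the only member that passed the threshold between nodes, by edgeR and in CD8+ Naive T cells. Its node difference there was not shown to exceed that in CD4+ Naive T cells (below). Values are of the 6 mice with at least 20 CD8+ Naive T cells in both nodes. In brLN Klf2 in these cells ran from 749.7 through a median of 846 to 945.4 CPM, and in udLN from 945.1 through 1029 to 1191 CPM. The ranges overlapped only in the highest brLN value (mouse 36) and the lowest udLN value (mouse 4). Every mouse was higher in udLN, by 1.35-fold in WT mouse 1, 1.24-fold in WT mouse 6, and 1.14, 1.12, 1.40 and 1.17-fold in Aire-DTR mice 4, 7, 8 and 36. The fitted log2 difference was 0.29 with an SE of 0.054 (n = 6 mice), with an adjusted p of 0.000928 by edgeR's quasi-likelihood test with mouse as a block and Benjamini-Hochberg adjustment over the 4025 genes tested. Of those genes, 5 passed, or 0.124%. By DESeq2 the difference was as large, 0.30, but missed the threshold (adjusted p = 0.0836), and no gene of the class passed. It passed with each mouse left out in turn (0.26 to 0.33, adjusted p 0.00155 to 0.0371) and with second copies kept (0.30, adjusted p = 0.00161).

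Other values of the CD8+ Naive T class that could move with the nodes were measured beside Klf2. The summed early response genes were higher in udLN in 6 of 6 mice, as Klf2 was, at 680 to 927 CPM in brLN and 847 to 1069 CPM in udLN, and none of the 5 tested passed. The summed level of the 4 naive markers Lef1, Igfbp4, Dapl1 and Ccr9 was higher in udLN in 5 of 6 mice, at 1258 to 1472 CPM in brLN and 1220 to 1708 CPM in udLN, and none of the 4 passed. The summed markers of memory or activation were lower in udLN in 5 of 6 mice, at 48.1 to 86.2 CPM in brLN and 30.8 to 81.6 CPM in udLN. B cell markers summed to 39.6 to 64.4 CPM in brLN and 39.3 to 60.6 CPM in udLN. Red cell transcripts summed to 3.30 to 1229 and 3.02 to 896 CPM. The part of any of these in the Klf2 difference was not tested. Without cells that carried UMIs of another lineage the Klf2 difference was 0.32 (adjusted p = 0.000886).

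In the other classes Klf2 did not pass. CD4+ Naive T cells had 729 through 808 to 917 CPM in brLN and 736 through 879.8 to 1081 CPM in udLN, overlapping but higher in udLN in 6 of 6 mice (log2 0.15, SE 0.059, adjusted p = 0.688). The early response sum of these cells was also higher in udLN in 6 of 6 mice (926 to 1332 CPM in brLN, 1129 to 1711 CPM in udLN). The sum of the 4 naive markers was higher in udLN in 4 of 6 mice (1792 to 2357 CPM in brLN, 2004 to 2566 CPM in udLN). Of these 4, Dapl1 passed and was lower in udLN (log2 -0.54, SE 0.11, adjusted p = 0.0178 by edgeR). Their part was not tested. CD4+ Mem T cells had 836, 542, 405, 373 and 551 CPM in brLN and 423, 341, 405, 661 and 349 CPM in udLN of mice 1, 4, 7, 8 and 36. That is a log2 difference of -0.39 (SE 0.17, adjusted p = 0.523), close to 0 in mouse 7 and opposite in mouse 8, without which it passed (-0.65, adjusted p = 0.0433). B cells had -0.0067 (SE 0.078, adjusted p = 0.9998, n = 7 mice), with udLN higher in 3 of 7.

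Over the pooled cells of all mice, the subsets of the CD4+ Mem T class had different shares in the nodes. Shares per mouse were not computed, and mice 6 and 97 are in this pool but not in the node fit of the class. Of its 326 brLN cells with a subset, 39.9% were Early Act. CD4, 21.8% Th17, 18.4% Tfh and 18.7% Act. Treg, and of 205 udLN cells 22.4%, 15.1%, 32.7% and 27.3%. Over all cells of a subset, Klf2 stood at 994 CPM in Th17, 428 in Early Act. CD4, 339 in Tfh and 288 CPM in Act. Treg, and S1pr1 at 229, 123, 121 and 84.5 CPM in the same order. Within Tfh Klf2 was 336 CPM in brLN and 341 CPM in udLN. It was 398 and 507 CPM in Early Act. CD4, 1043 and 845 CPM in Th17, and 308 and 262 CPM in Act. Treg. The summed markers of memory or activation were lower in udLN in 4 of 5 mice, and S100a6, the most abundant of them in this class, passed (log2 -1.17, SE 0.13, adjusted p = 1.37e-06). The part of the subset mix in the node differences of this class was not tested.

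Whether the classes differed from each other in their node difference was tested in fits of a pair of classes, added after the values were seen. The node difference of Klf2 was larger in CD8+ Naive T than in CD4+ Mem T cells by 0.73 on the log2 scale (SE 0.16, adjusted p = 0.0410, n = 5 mice, edgeR), where 0.146% of 4107 genes passed. Over pooled cells, the subset mix of CD4+ Mem T cells differed between the nodes (above). This call was lost without mouse 1 (0.54), mouse 4 (0.65) or mouse 36 (0.64), with adjusted p from 0.288 to 0.409, and with second copies kept (0.80, adjusted p = 0.0551). The excess over CD4+ Naive T cells was 0.14 (SE 0.081, adjusted p = 1, 0.0231% of 4337 genes passed) and that over B cells 0.29 (SE 0.10, unadjusted p = 0.0107, adjusted p = 1, 0% of 5056 genes passed). 

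**Figure D3:**
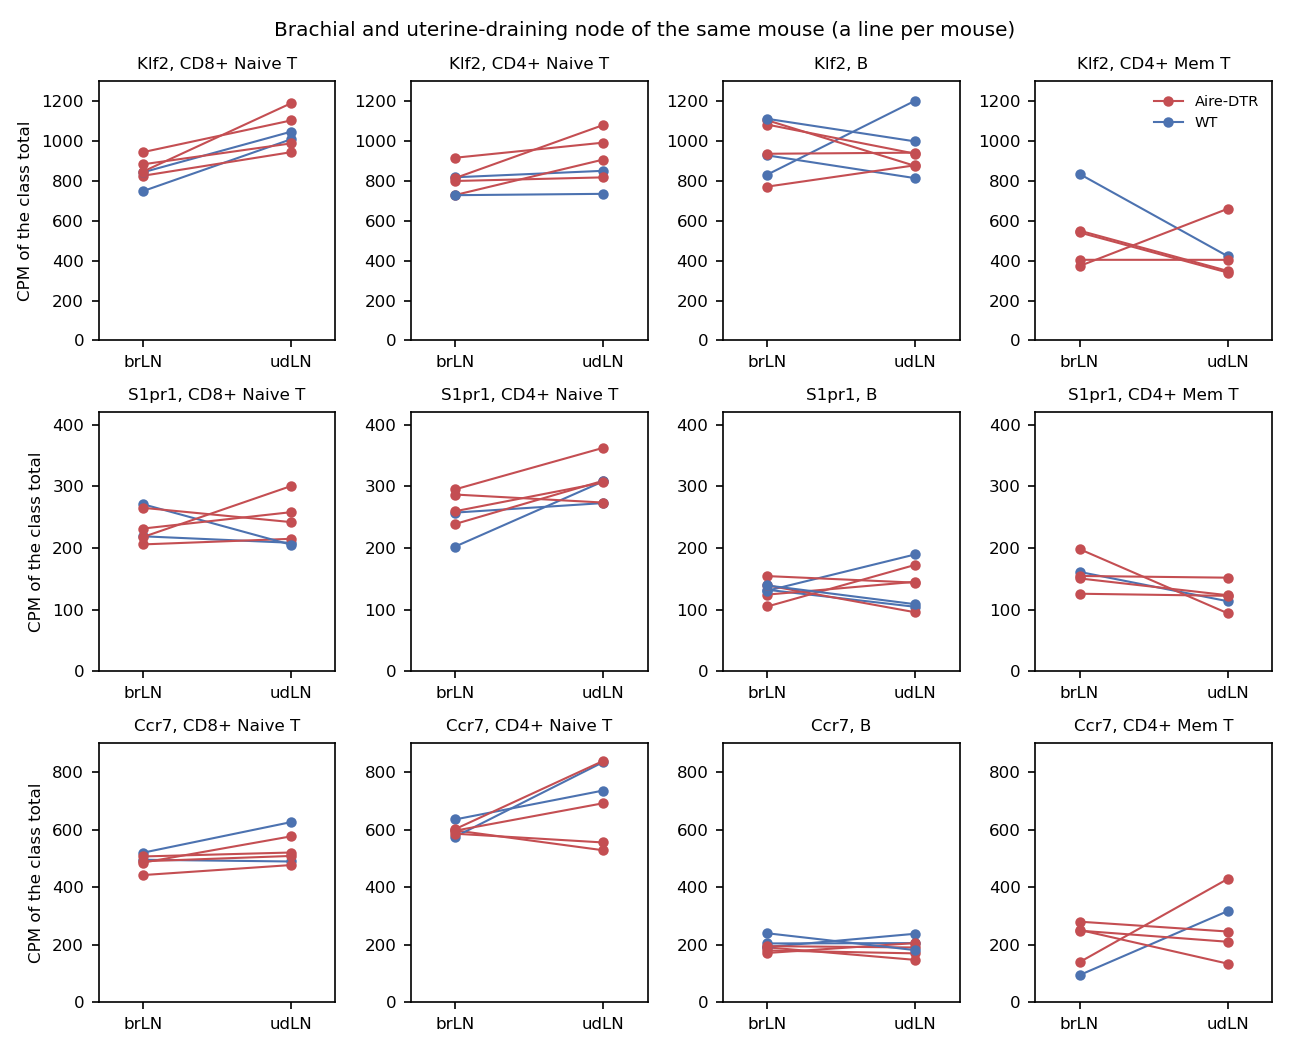
Levels of Klf2, S1pr1 and Ccr7 (y axis, CPM of the class total, linear) in brLN and udLN (x axis) of the same mouse, a line per mouse, in 4 cell classes. All 6 lines rise for Klf2 in CD8+ Naive T cells, where the range moves from 749.7 to 945.4 CPM in brLN to 945.1 to 1191 CPM in udLN.

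S1pr1, the exit receptor, passed in no class. CD4+ Naive T cells had 203 through 259 to 295 CPM in brLN and 273 through 307 to 363 CPM in udLN, higher in 5 of 6 mice (log2 0.20, SE 0.096, adjusted p = 0.768). CD8+ Naive T cells were higher in 3 of 6 mice (0.091, SE 0.094, adjusted p = 0.956). In CD4+ Mem T cells S1pr1 was lower in udLN in 5 of 5 mice, at 161, 155, 126, 198 and 151 CPM in brLN and 114, 152, 123, 94.4 and 124 CPM in udLN of mice 1, 4, 7, 8 and 36, on 10 to 52 UMIs a value. The fitted difference was -0.36 (SE 0.22, adjusted p = 0.780), and ratios ran from 0.476 to 0.982. The subset mix over pooled cells and the memory markers of this class differed between nodes as well (above), and their part was not tested.

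Ccr7, the entry receptor, also passed in no class. Its log2 differences were 0.13 (SE 0.072, adjusted p = 0.876) in CD4+ Naive T, 0.096 (SE 0.066, adjusted p = 0.956) in CD8+ Naive T, 0.22 (SE 0.24, adjusted p = 0.890) in CD4+ Mem T and -0.019 (SE 0.11, adjusted p = 0.9998) in B cells. In CD4+ Naive T cells brLN values were close together, 576 to 636 CPM, and udLN values spread from 529 to 839.7 CPM, with 4 of 6 mice higher. In CD4+ Mem T cells the ratio of udLN to brLN was 3.34 in mouse 1 and 3.06 in mouse 8, on 10 and 12 UMIs in brLN, and 0.535 to 0.878 in the other 3 mice.

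Over the 4 classes tested between nodes, 1 of 12 tests of members passed by edgeR and none by DESeq2, where 0.177% of all 13539 tests passed by edgeR. An unadjusted p below 0.05 was found in 4 of the 12 by edgeR (1 by DESeq2). Of all genes it was found by edgeR in 205 of 4176 in B and 208 of 3369 in CD4+ Naive T cells. In CD8+ Naive T cells it was found in 214 of 4025 and in CD4+ Mem T cells in 160 of 1969. Cxcr4 did not pass the filter on low counts in any fit, so 3 of the 4 members were tested in each. With no filter its log2 differences between nodes were -0.86 to 1.24 and the smallest adjusted p was 0.999.

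Of 64 genes of entry, positioning and exit listed for this purpose, 60 were measured. In CD8+ Naive T cells 38 of them were tested between nodes, 26 had a difference above 0 (2033 of all 4025 genes) and 1 passed, the member Klf2 reported above, where 0.124% of all genes passed. Without the members 0 of 35 passed. Their median log2 difference was 0.089, beside 0.0028 over all genes. The 7 entry and adhesion genes tested had a median of 0.18, with 6 above 0 and none past the threshold. All 6 transcription factors tested were above 0 (median 0.13), of which Klf2 passed, while 5 of 6 genes of receptor desensitisation were below 0 (median -0.18) and none passed. In CD4+ Naive T cells 27 of 36 were above 0 (1665 of all 3369 genes) and none passed, where 0.119% of all genes did (median 0.080, all genes -0.0020). In B cells 14 of 38 were above 0 (2121 of all 4176 genes) and none passed, where 0.0479% of all genes did (median -0.034, all genes 0.0033). These counts of direction, and those of the small groups, were not tested.

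Of all 1969 genes tested between nodes in CD4+ Mem T cells, 937 were above 0 and 13, or 0.66%, passed. Among the list genes 19 of 34 were above 0 and 1 passed (median 0.060, all genes -0.013). That gene was Itga4, the alpha chain of integrins that bind the vessel adhesion molecules VCAM-1 and MAdCAM-1. It had 19.0, 87.1, 87.8, 23.3 and 72.5 CPM in brLN and 138, 184, 221, 112 and 80.0 CPM in udLN of mice 1, 4, 7, 8 and 36, higher in udLN in 5 of 5 with overlapping ranges. The log2 difference was 1.12 (SE 0.28, adjusted p = 0.0479), on 2 to 35 UMIs a value. It stayed past the threshold in 1 of the 13 alternatives run, RLE scaling, and the adjusted p ran up to 0.726, by DESeq2. In these 5 mice the summed markers of memory or activation ran from 1352 to 1928 CPM in brLN and from 1004 to 1385 CPM in udLN, and neither their part in this result nor that of the subset mix was tested.

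No member passed the threshold between genotypes. In brLN, the node tested in the most classes, 0 of 21 tests passed by edgeR or DESeq2 (2 and 0 had an unadjusted p below 0.05), where 0.0902% of all 27712 tests passed by edgeR. In udLN 0 of 9 passed by either tool (1 and 0 unadjusted), where 0.0511% of 11743 passed. The smallest adjusted p were 0.417 and 0.883. By edgeR, the 2 in brLN with an unadjusted p below 0.05 were in CD4+ Mem T cells, where 140 of 3245 genes had one. The 1 in udLN was in CD4+ Naive T cells, where 197 of 3624 genes had one. Klf2 in CD8+ Naive T cells of brLN was 827, 848, 884 and 945 CPM in Aire-DTR and 749.7, 844 and 854 CPM in WT mice, which overlap (log2 0.13, SE 0.077, adjusted p = 0.9996). Ccr7 in CD4+ Naive T cells of brLN was 596 ± 6.82 CPM in 4 Aire-DTR and 614 ± 32.7 in 3 WT mice (SD; log2 -0.058, SE 0.085, adjusted p = 0.984). S1pr1 in the same cells was 270 ± 25.7 and 246 ± 38.7 CPM (log2 0.093, SE 0.12, adjusted p = 0.980). Among the 21 comparisons of a tested member in brLN and 9 in udLN, the genotypes did not overlap in 3, and none passed. The share over all genes was not computed, and with as few as 2 mice of a genotype groups can be apart by chance. S1pr1 in CD8+ Naive T cells of udLN was 254 ± 35.8 CPM in 4 Aire-DTR and 207 ± 2.23 CPM in 2 WT mice (SD; log2 0.26, SE 0.18, adjusted p = 0.933). S1pr1 in Resting Treg cells of brLN was 222 ± 24.8 CPM in 3 Aire-DTR and 289 ± 25.1 CPM in 2 WT mice (log2 -0.33, SE 0.31, adjusted p = 0.986). Klf2 in CD8+ Mem T cells of brLN was 725 ± 33.8 CPM in 3 Aire-DTR and 797 ± 64.8 CPM in 2 WT mice (log2 -0.086, SE 0.13, adjusted p = 0.998). Cxcr4, which was under the filter, had 7 such comparisons in brLN and 3 in udLN. The genotypes did not overlap in 3 of them, on few UMIs. Aire-DTR means were 4.49 CPM in CD4+ Naive T cells of udLN, 8.25 in CD4+ Treg and 6.86 CPM in Resting Treg cells of brLN. WT means were 27.1, 25.5 and 25.5 CPM in the same order. SEs of the tested members ran from 0.077 to 0.33 in brLN and from 0.089 to 0.24 in udLN. With no filter on low counts, Cxcr4 had fitted log2 differences from -1.63 to 2.95 in brLN and from -2.01 to 0.0043 in udLN, with smallest adjusted p of 0.978 and 0.972 by edgeR, and 0 passed.

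Among the 3 members past the low-count filter, the largest genotype difference was that of Ccr7 in CD4+ Mem T cells of brLN. Aire-DTR mice 4, 7, 8 and 36 had 281, 252, 140.0 and 249 CPM and WT mice 1 and 97 had 95 and 168 CPM, which overlap. The log2 difference was 0.96 (SE 0.28, unadjusted p = 0.00218, adjusted p = 0.417). Within pool LN both Aire-DTR mice lay above the WT mouse and within pool 2 the Aire-DTR mouse did. In pool 1 the order was opposite: WT mouse 6 had 14 such cells, under the minimum of 20, and Ccr7 at 533 CPM on 30 UMIs. With sums of at least 10 cells, which let this mouse in, the difference was 0.23 (adjusted p = 0.997). The markers of memory or activation ran from 1352 to 1674 CPM in these Aire-DTR sums and from 1928 to 2045 CPM in the WT sums, and their part was not tested.

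The node difference was not shown to depend on genotype. Of 9 tests of an interaction of node and genotype, in B, CD4+ Naive T and CD8+ Naive T cells, 0 passed by edgeR or DESeq2 and none had an unadjusted p below 0.05 by either, where 0.0473% of 14785 tests passed by edgeR. For Klf2 in CD8+ Naive T cells the node difference in Aire-DTR less that in WT mice was -0.13 (SE 0.13, adjusted p = 0.9998, 4 and 2 mice). The list of 64 genes had 0 genes past the threshold in any class of either genotype comparison or of the interaction. Its median in brLN of Aire-DTR less WT mice ran from -0.16 in CD4+ Treg to -0.021 in CD4+ Naive T cells, beside 0.0080 and -0.00030 over all genes.

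**Figure D4:**
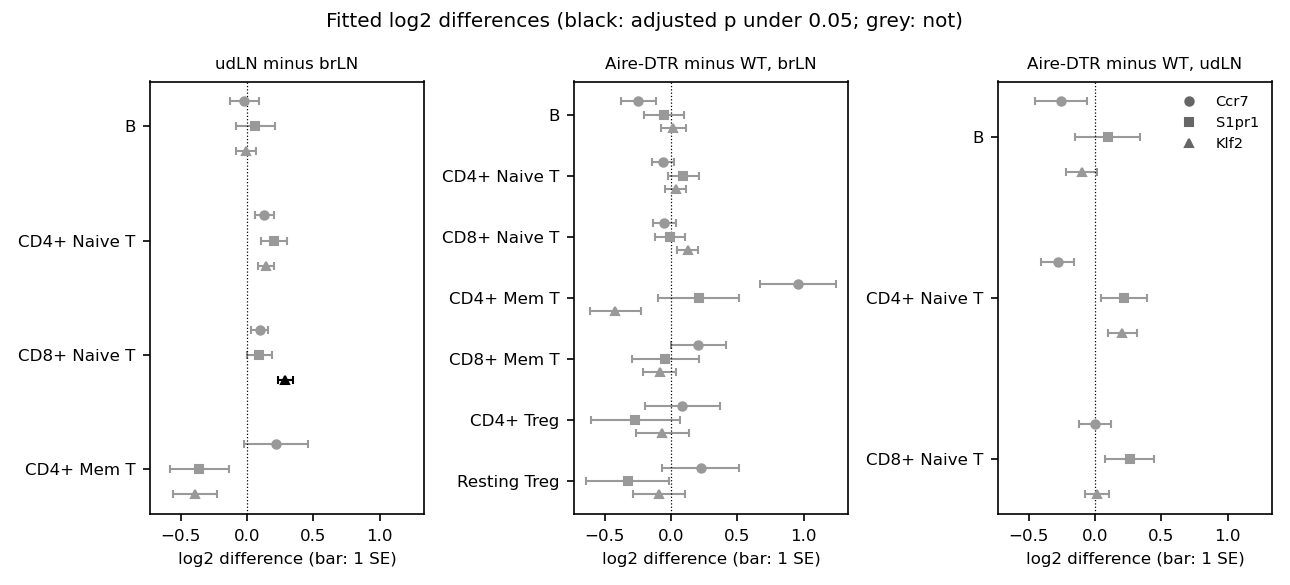
Fitted log2 differences (x axis) with 1 SE for Ccr7, S1pr1 and Klf2 by cell class (y axis), for udLN less brLN and for Aire-DTR less WT in each node. Klf2 in CD8+ Naive T cells (0.29) is the single difference past adjusted p 0.05, and Ccr7 in CD4+ Mem T cells of brLN (0.96) has the largest size of those drawn without passing.

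**Figure D5:**
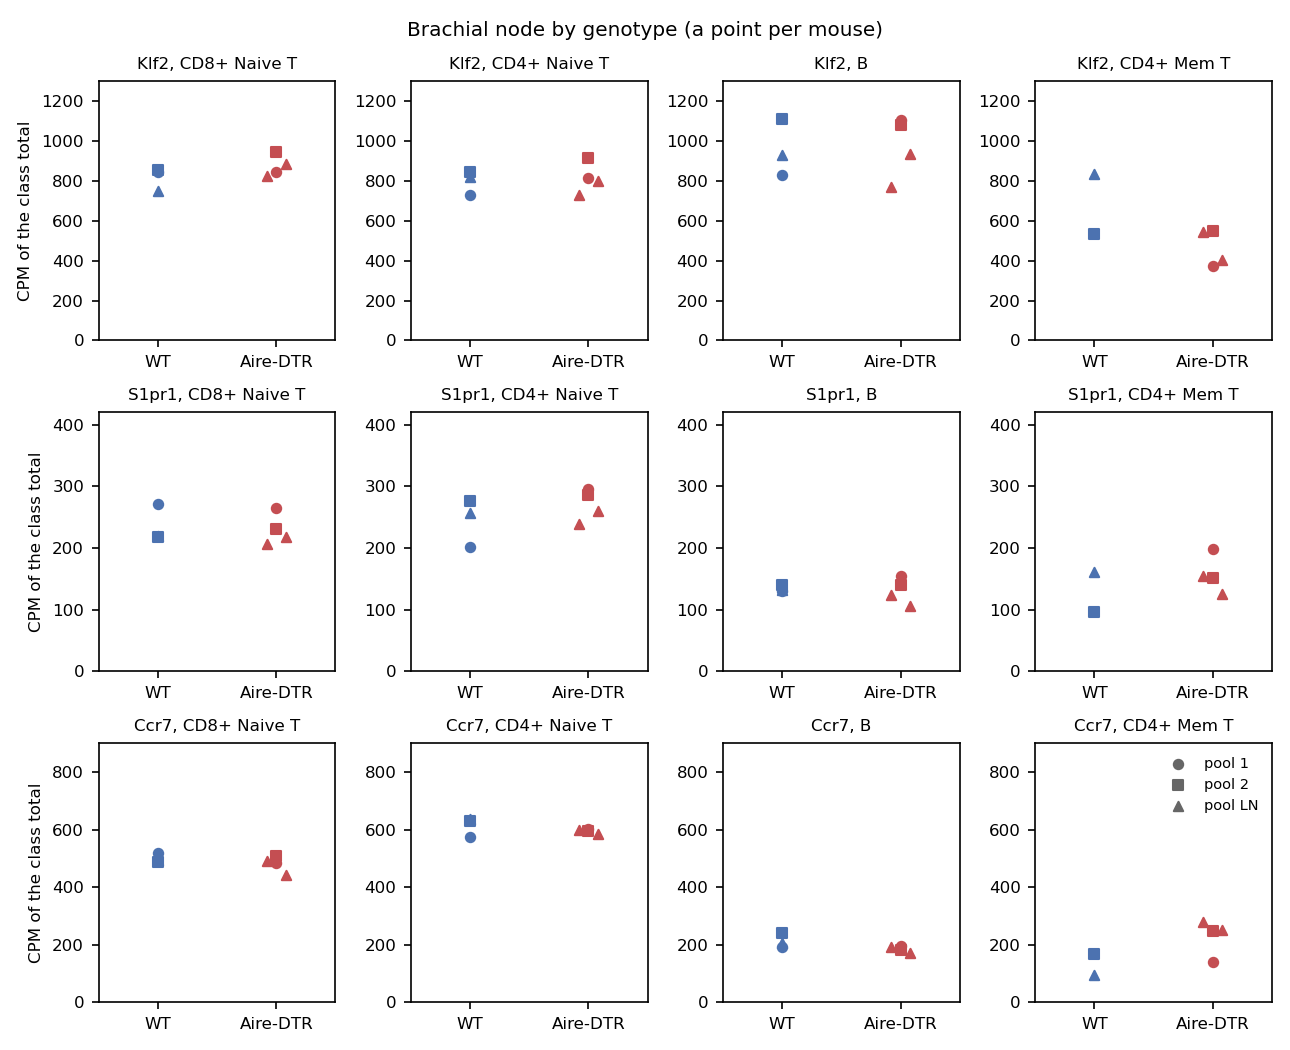
Levels of Klf2, S1pr1 and Ccr7 (y axis, CPM of the class total, linear) in brLN of WT and Aire-DTR mice (x axis), a point per mouse and a symbol per pool, in 4 cell classes. The genotypes overlap in all 12 panels, such as Klf2 in CD8+ Naive T cells at 749.7 to 854 CPM in WT and 827 to 945 CPM in Aire-DTR mice.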

How the data were processed

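The authors deposited raw UMI counts per cell and gene with each cell's mouse, node, genotype, pool and cell class. The tools named in the submitters' processing notes are Scanpy 1.7.0, Seurat, bustools 0.40.0 and kallisto 0.46.1, and the build is GRCm38. Their roles, the assignment of hashtags, the cell filter and the treatment of doublets are not stated there, and no doublet caller was run here. Uterine cells of pools 1 and 2 were not analysed here. Second copies of cells were removed, and counts were summed per mouse, node and class where at least 20 cells were present. Sums were filtered with filterByExpr, scaled by TMM and tested with edgeR 4.0.16 (quasi-likelihood test, R 4.3.3), with mouse as a block between nodes, since both nodes came from the same mouse, and pool as a term between genotypes, with 1 node in each fit. DESeq2 1.42.0 was an alternative. The Benjamini-Hochberg threshold was 0.05 over all genes of a fit. An SE was taken from the F statistic (size of the difference divided by its root), and rests on a spread moderated over genes. Intervals and floors cover counting error only. The fits were tested on simulated data. The genes named are the 4 members, list genes past the threshold, and genes among the 5 most alike to each member (1 is not reported here, and for Cxcr4 only the first is named). The members and lists were chosen with earlier results of these data known. The tests between classes, which do not model the correlation of classes within a mouse, and the fits with second copies kept were added after seeing the data.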

Additional observations from a re-analysis of the deposited data

Results flagged for a closer look

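The node difference of Klf2 (udLN less brLN) differed between 2 cell classes by a test of the difference itself: it was higher in CD8+ Naive T than in CD4+ Mem T cells by 0.733 on the log2 scale (SE 0.16, adjusted p = 0.0410 by edgeR, n = 5 mice). It was above 0 in 5 of 5 of these mice in CD8+ Naive T cells and below 0 in 4 of 5 in CD4+ Mem T cells, in mouse 7 by less than 1 CPM. Over the pooled cells of all mice, the shares of the subsets that make up CD4+ Mem T differed between nodes. Early Act. CD4 made up 39.9% of brLN and 22.4% of udLN cells, Tfh 18.4% and 32.7%, and Th17 21.8% and 15.1%. Klf2 ran from 288 CPM in Act. Treg to 994 CPM in Th17, and the part of the subsets was not tested. The call was lost without mouse 1, 4 or 36 and with second copies of cells kept. The pairs of classes were chosen after the values were seen, and the adjustment covers genes but not this choice. In 44 groups of 4 to 7 mice checked, no member had 1 mouse far from the rest.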

How the results depend on the processing

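Between nodes 1 test of a member passed, and this count was 0 with DESeq2 and 1 to 2 with each mouse left out in turn, where the second call was Klf2 in CD4+ Mem T cells without mouse 8. Klf2 in CD8+ Naive T cells passed in 14 of 15 alternatives (log2 0.26 to 0.33, adjusted p 0.000559 to 0.0836). Of these, sums of at least 40 cells and leaving out WT mouse 6 gave the same fit, so they count as 1. Without the replicate block that pairs the nodes of a mouse it was 0.29 (adjusted p = 0.00203), and the count of members past the threshold was 1. For the interaction without the replicate block the count was 0. No member passed between genotypes or in the interaction in any alternative run. The largest genotype difference of a member past the low-count filter, Ccr7 in CD4+ Mem T cells of brLN, moved from 0.96 to 0.23 with sums of at least 10 cells; the cause was not tested beyond the entry of WT mouse 6. Depth limits Cxcr4, with 221 UMIs in all cells.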

Other observations

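CD69 binds S1PR1 protein, and S1pr1 RNA was compared between cells with and without a Cd69 UMI after thinning. In CD4+ Mem T cells of 3 mice S1pr1 was 80.1 ± 59.0 CPM in 85 cells with a Cd69 UMI and 168 ± 35.9 CPM in 247 cells without (SD, n = 3), lower in 3 of 3 mice. This split also sorts subsets of the class: after thinning, Early Act. CD4 had a Cd69 UMI in 45.6% and an S1pr1 UMI in 16.1% of cells, and Th17 in 6.86% and 30.4%. Their part was not tested. In CD4+ Naive T cells it was 241 ± 27.6 and 279 ± 23.6 CPM (n = 5), lower in 4 of 5. In CD8+ Naive T cells it was 226 ± 37.3 and 241 ± 17.3 CPM (n = 6), lower in 4 of 6. In B cells it was 136 ± 48.9 and 143 ± 25.2 CPM (n = 7), lower in 3 of 7. Other members differed by this split as well. In CD8+ Naive T cells Ccr7 was 461 ± 68.1 CPM with and 518 ± 33.7 CPM without a Cd69 UMI, lower in 5 of 6 mice. Klf2 was lower in 5 of 6 there, at 923 ± 124 and 941 ± 97.3 CPM. In CD4+ Mem T cells Ccr7 and Klf2 were each lower in 2 of 3 mice. B cells had Ccr7 at 213 ± 19.8 and 190 ± 26.3 CPM, higher with a Cd69 UMI in 6 of 7. No test was run, since cells were split by a measured value.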
